A study of Mus musculus with 378 samples.

Results

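The cells described here are single tumour-infiltrating T cells in which RNA of Il27ra, the specific chain of the IL-27 receptor, was or was not read. Members were chosen by a measured value. Cells that showed 1000 or more genes above 0 FPKM (fragments per kilobase of transcript, scaled to library size) were split, within each group, into Il27ra-positive cells (above 0 FPKM) and Il27ra-zero cells (at 0 FPKM). Of 374 single cells, 79.7% were kept, and 48.3% of these were positive. There were 39 positive and 35 zero cells in KO CD8, 26 and 41 in WT CD8, 41 and 37 in KO CD4, and 38 and 41 in WT CD4. All came from B16F10 tumours, a transplanted mouse melanoma, in C57BL/6 mice labelled as Il27ra knockout (KO) or wild type (WT). The labels give no age of the mice and no treatment other than the tumour. A title part not interpreted here reads p3 for WT CD4 cells and p2 elsewhere, so it cannot be told apart from that group. Another is an animal word, rabbit for KO CD8, cat for WT CD8, bird for KO CD4 and dog for WT CD4. Its meaning is not stated, and it cannot be told apart from genotype and cell type. CD8 or CD4 identity stands in the titles, while the protocol names CD8+ cells only. Full-length cDNA of each cell was sequenced by Smart-seq2.

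IL-27 is made mainly by myeloid cells and is read by a receptor of Il27ra and gp130 (Il6st), which acts through the kinases JAK1, JAK2 and TYK2 on STAT factors such as STAT3. In T cells it is known for inducing interferon-response genes, IL-10 and, through Prdm1 and Maf, a set of coinhibitory receptors such as PD-1, LAG-3, TIM-3 and TIGIT. Il27ra itself is the gene that made the split, so its levels are no result here. It was read in cells labelled KO too, and the table holds 1 value per gene, so that a transcript left by the knockout allele and an intact one cannot be told apart.

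The labels name no animal. Each genotype and cell type therefore counts as 1 sample, its cells are not replicates, and no test was made. The titles write the genotypes as KO4 and WT4, and the meaning of the 4 is not stated. Whether the CD8 and CD4 cells of a genotype came from the same mice is not stated either, so the 4 groups may not be independent. All values below are descriptions, with SDs over cells, exact Clopper-Pearson 95% intervals for shares (counting error only) and SDs over the 4 groups for mean differences. A difference is the mean log2(FPKM + 1) of positive cells minus that of zero cells, and moves with the share of cells above 0 as well as with the level.

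Positive and zero cells differed in genes detected, most clearly in WT CD8. Median genes detected were 2843 in positive and 2784 in zero cells of KO CD8, 3684 and 2553 in WT CD8, 2676 and 2501 in KO CD4, and 2347 and 2206 in WT CD4. Positive cells had the higher median in all 4 groups, by far the most in WT CD8, and the ranges overlapped in every group. Not all quartiles went this way. The first quartile of KO CD8 was 2554 in positive and 2594.5 in zero cells, and the third quartile of KO CD4 was 3077 and 3213. Reads per cell, estimated from the steps between low values, had medians of 323594 and 316228, 334988 and 204174, 316228 and 263027, and 216286 and 213796 in positive and zero cells of the same groups. The estimate is rough and failed in at least 1 cell. A zero cell of WT CD8 with 4860 genes detected was given 3715 reads, fewer than its genes. Because a low transcript is read more often in a richer library, every comparison was repeated in pairs of 1 positive and 1 zero cell that lay within 10% of each other in genes detected. This left 34 pairs in KO CD8, 19 in WT CD8, 27 in KO CD4 and 34 in WT CD4. Matched medians were 2795.5 and 2797 genes in KO CD8, 3398 and 3209 in WT CD8, 2582 and 2586 in KO CD4, and 2309 and 2318 in WT CD4.

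**Figure D1:**
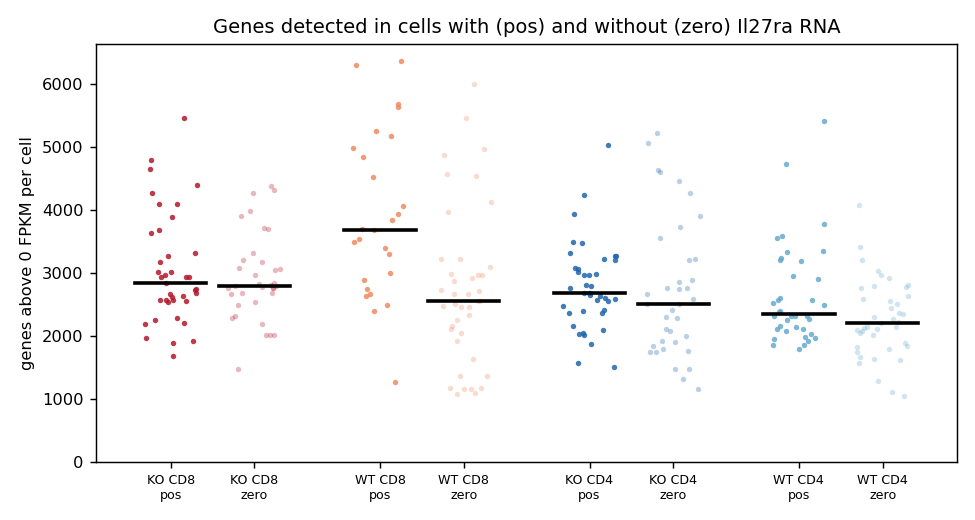
Genes above 0 FPKM in each kept cell, by group, with Il27ra-positive cells (pos) left of Il27ra-zero cells (zero). Points are cells and black bars are medians; the widest gap is in WT CD8, 3684 against 2553 genes.

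Near the thresholds, the lowest Il27ra value that counted as positive was 3.49 FPKM in KO CD8, 0.45 in WT CD8, 2.30 in KO CD4 and 1.89 in WT CD4. Positive cells at or under 10 FPKM numbered 6 of 39, 10 of 26, 3 of 41 and 5 of 38. The kept cell with the fewest genes had 1476, 1068, 1154 and 1050 genes in these groups, and the cell left out with the most had 862, 855, 977 and 557.

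Cells without Cd3 or B2m RNA lay mostly among the zero cells, while cells with several melanoma markers lay mostly among the positive cells. The T cell receptor chains Cd3d, Cd3e and Cd3g were all at 0 in 0 positive and 3 zero cells of KO CD8, 0 and 8 of WT CD8, 0 and 1 of KO CD4, and 0 and 3 of WT CD4. B2m, which nearly all nucleated cells transcribe, was at 0 in 1 positive and 7 zero cells of WT CD8 and in 0 and 6 of WT CD4, and in no cell of either KO group. The summed level of 6 T cell markers had medians of 53.01 in positive and 48.47 in zero cells of KO CD8, 58.96 and 44.90 in WT CD8, 48.99 and 45.15 in KO CD4, and 49.83 and 38.23 in WT CD4. At least 3 of 24 macrophage, class II and dendritic cell markers were read in 7 positive and 6 zero cells, 3 and 5, 3 and 6, and 7 and 5 in the same order. The dendritic cell list, with 8 markers, reached 3 in 1 positive and 5 zero cells of KO CD8, 0 and 1 of WT CD8, 0 and 2 of KO CD4, and 0 and 0 of WT CD4. At least 3 of 8 melanoma markers were read in 0 positive and 0 zero cells of KO CD8, 3 and 0 of WT CD8, 1 and 0 of KO CD4, and 4 and 1 of WT CD4. A narrower set of matched pairs, chosen after the data were seen, is called the cleared pairs below. This set left out cells without Cd3 or B2m RNA and cells with at least 3 of the 24 markers. Cells with melanoma markers were not left out. The set held 28, 14, 25 and 28 pairs.

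Before matching, most genes in the WT groups were higher in positive cells. Among genes above 0 in at least 20% of cells on either side, 10.9% were higher by 1 or more and 4.27% lower in KO CD8 (6437 genes). The shares were 48% and 1.04% in WT CD8 (7106 genes), 8.84% and 5.68% in KO CD4 (5636 genes) and 26.3% and 1.4% in WT CD4 (5144 genes). In matched pairs they were 9.43% and 6.28% in KO CD8, 15.7% and 7.89% in WT CD8, 10.9% and 9.03% in KO CD4, and 13.9% and 4.55% in WT CD4. The median over all genes compared went with this: 0.09, 0.95, 0.03 and 0.47 with all cells, and 0.01, 0.12, 0.00 and 0.12 in pairs (KO CD8, WT CD8, KO CD4, WT CD4). A difference with all cells in the WT groups is thus to be read against a general difference of that size.

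Few genes differed alike in all groups. Of 4452 genes compared in all 4 groups, 5.3% were higher by at least 0.5 in positive cells of every group and 1 gene (0.0225%) was lower. In matched pairs 56 (1.26%) were higher and 11 (0.247%) lower. Both readings shared 41 higher genes and 1 lower gene, Il7r. Of 4133 nameable genes compared in all 4 groups, 5.88% were higher and 22 (0.532%) lower in every group by all cells, pairs and shares alike, with no minimum size. Named below are the 12 of each kind with the largest mean matched difference. Since the rule used these values, they describe the members and support nothing further.

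**Figure D2:**
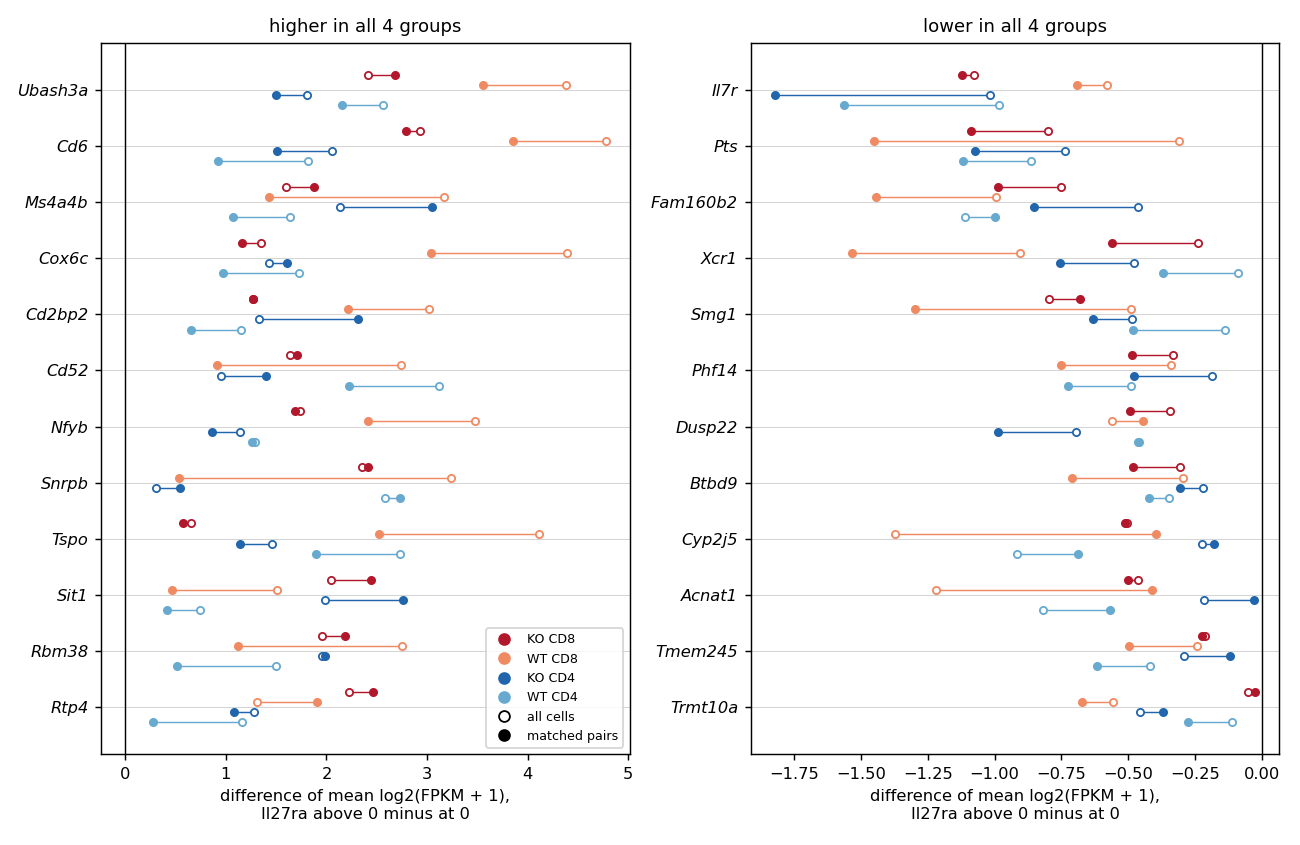
Differences of mean log2(FPKM + 1), Il27ra-positive minus Il27ra-zero cells, for the 12 genes higher (left) and the 12 lower (right) in all 4 groups. Open circles are all cells, filled circles are matched pairs, colours are groups; Ubash3a and Cd6 head the left panel and Il7r the right, and the x axes of the panels differ in scale.

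Ubash3a and Cd6, both of which tune the T cell receptor signal, stood first among the higher genes. Ubash3a encodes a phosphatase-family protein that dampens receptor signalling (chr17:31207868-31259681, mm10). It was read in 31 of 39 positive cells (79.5%, 63.5 to 90.7%) and 18 of 35 zero cells (51.4%, 34 to 68.6%) of KO CD8. The counts were 23 of 26 (88.5%, 69.8 to 97.6%) and 16 of 41 (39%, 24.2 to 55.5%) in WT CD8. They were 27 of 41 (65.9%, 49.4 to 79.9%) and 13 of 37 (35.1%, 20.2 to 52.5%) in KO CD4, and 27 of 38 (71.1%, 54.1 to 84.6%) and 15 of 41 (36.6%, 22.1 to 53.1%) in WT CD4. The zero cells had the lower share in every group, which the rule that named the gene required. The intervals give counting error over cells that are not replicates, so whether they overlap compares neither sides nor genotypes.

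On the log2(FPKM + 1) scale the lowest cell was at 0 on both sides of every group. Ubash3a medians in positive and zero cells were 6.89 and 3.11 in KO CD8, 7.54 and 0.00 in WT CD8, 6.07 and 0.00 in KO CD4, and 6.76 and 0.00 in WT CD4. The highest cells reached 10.61 and 9.68, 11.10 and 9.45, 10.51 and 10.81, and 10.34 and 9.85. Individual cells thus overlapped in all 4 groups. The mean was 5.91 ± 3.80 in positive and 3.50 ± 3.68 in zero cells of KO CD8, 6.96 ± 2.96 and 2.58 ± 3.56 in WT CD8, 4.86 ± 3.85 and 3.06 ± 4.28 in KO CD4, and 5.24 ± 3.80 and 2.68 ± 3.78 in WT CD4. The mean difference over the groups was 2.79 ± 1.11 with all cells (SD, n = 4 groups), 2.47 ± 0.87 in matched pairs and 2.04 in cleared pairs, where the groups gave 1.55, 3.45, 1.47 and 1.67.

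Cd6, a surface receptor of T cells that binds ALCAM on other cells (chr19:10789339-10830062, mm10), was read in 33 of 39 positive and 17 of 35 zero cells of KO CD8, 25 of 26 and 18 of 41 of WT CD8, 36 of 41 and 25 of 37 of KO CD4, and 32 of 38 and 28 of 41 of WT CD4. Its medians were 8.51 and 0.00, 8.74 and 0.00, 9.21 and 7.71, and 9.07 and 7.90 in the same order. The gap was thus wide in the CD8 groups, where the median zero cell had no Cd6 RNA read, and small in the CD4 groups, where most zero cells had it. Cd6 differences were 2.93, 4.77, 2.06 and 1.81 with all cells and 2.79, 3.86, 1.51 and 0.92 in pairs. In cleared pairs they were 1.70, 3.74, 1.31 and 0.66.

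**Figure D3:**
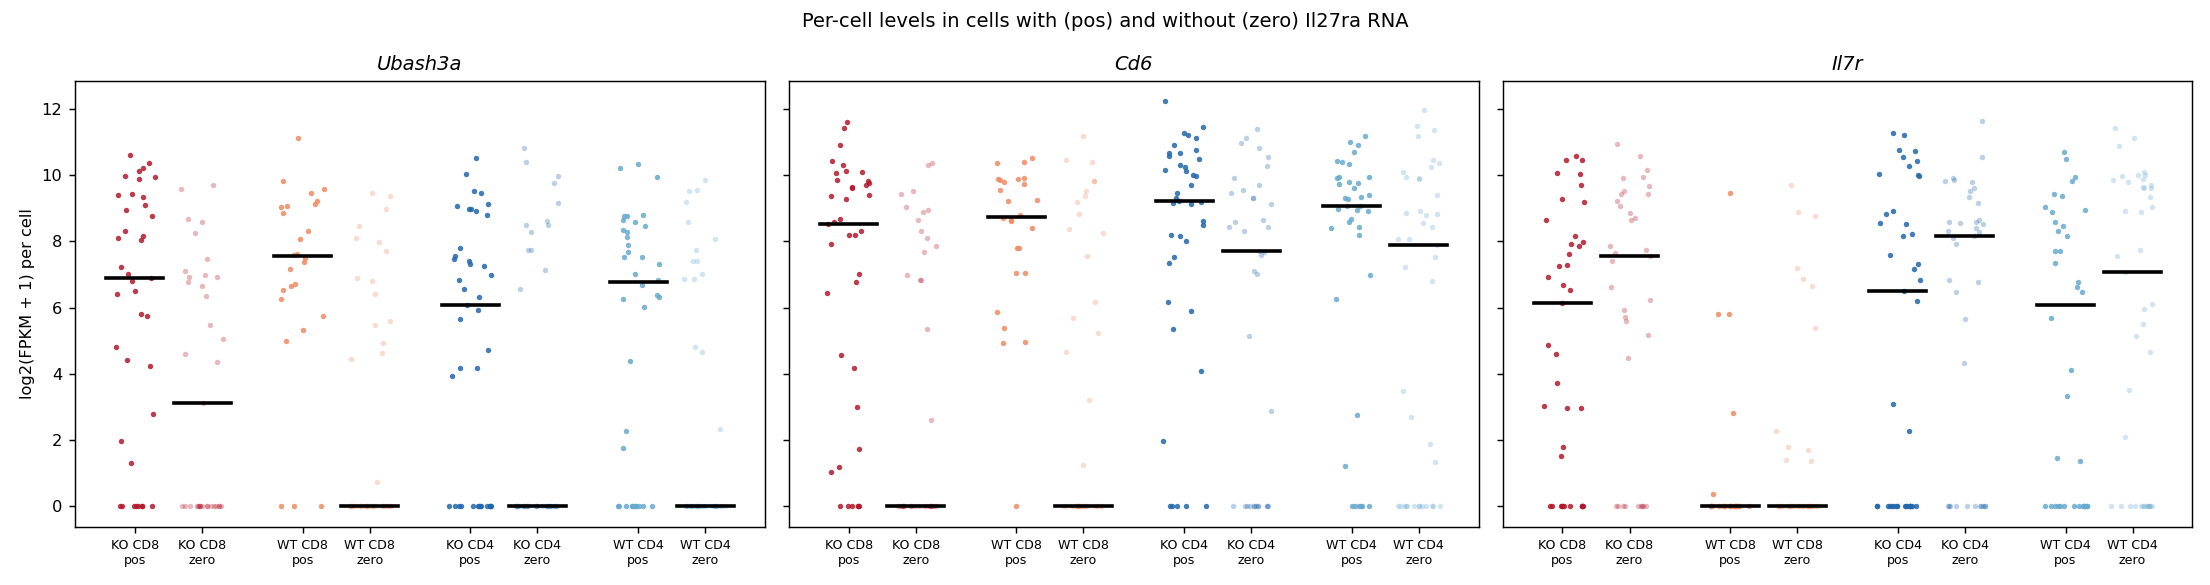
Per-cell log2(FPKM + 1) of Ubash3a, Cd6 and Il7r, Il27ra-positive cells (pos) left of Il27ra-zero cells (zero) in each group. Points are cells, black bars are medians; both sides start at 0 and overlap in every panel, and the median zero cell of WT CD8 lies at 0 for all 3 genes.

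Further surface or adaptor genes of lymphocytes followed. Ms4a4b, a T cell membrane protein of the MS4A family, had differences of 1.60 in KO CD8, 3.17 in WT CD8, 2.14 in KO CD4 and 1.64 in WT CD4. Its matched differences were 1.87, 1.43, 3.05 and 1.07, but only 0.10, 0.21, 2.51 and 0.45 in cleared pairs. Cd52, a small glycoprotein anchored on lymphocytes, was read in 39 of 39 positive and 31 of 35 zero cells of KO CD8 and in 35 of 38 and 28 of 41 of WT CD4. Its matched differences were 1.70, 0.92, 1.40 and 2.23, and 0.99, 0.77, 1.31 and 1.38 in cleared pairs. Sit1, an adaptor that restrains T cell receptor signalling, was read in 16 of 39 positive and 5 of 35 zero cells of KO CD8 and 17 of 41 and 6 of 37 of KO CD4. Its matched differences of 2.44 and 2.76 in those KO groups stood beside 0.46 in WT CD8 and 0.41 in WT CD4.

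The other higher genes belong to general cell functions. Cox6c, a subunit of respiratory complex IV, and Tspo, a protein of the outer mitochondrial membrane, had mean matched differences of 1.69 ± 0.94 and 1.53 ± 0.85 (SD, n = 4 groups). Snrpb, a core protein of the spliceosome, averaged 1.55 ± 1.18, and Cd2bp2, which binds the CD2 tail and a spliceosome particle, 1.61 ± 0.80. Nfyb, a subunit of the CCAAT-binding factor NF-Y, averaged 1.55 ± 0.66, and Rbm38, an RNA-binding protein, 1.45 ± 0.78. For these 6 genes the largest difference with all cells lay in WT CD8, where genes detected differed most. Rtp4, an interferon-induced gene, was read in 15 of 39 positive and 2 of 35 zero cells of KO CD8 (38.5%, 23.4 to 55.4%, and 5.71%, 0.70 to 19.2%). Its matched differences were 2.46, 1.91, 1.08 and 0.28, and the value for WT CD4 was -0.85 in cleared pairs.

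Il7r was the gene lower in positive cells of every group with the largest size. It encodes the receptor chain for IL-7, a survival cytokine of naive and memory T cells (chr15:9506159-9529941, mm10). Medians in positive and zero cells were 6.14 and 7.57 in KO CD8, 0.00 and 0.00 in WT CD8, 6.51 and 8.15 in KO CD4, and 6.08 and 7.09 in WT CD4. The lowest cell was at 0 on both sides throughout, and the highest cells were at 10.56 and 10.92, 9.45 and 9.69, 11.26 and 11.62, and 10.70 and 11.41. Zero cells thus lay higher at the median of 3 groups and at the top of all 4, with wide overlap. Il7r was read in 28 of 39 positive cells (71.8%, 55.1 to 85%) and 26 of 35 zero cells (74.3%, 56.7 to 87.5%) of KO CD8. In WT CD8, where few cells had it, the counts were 5 of 26 (19.2%, 6.55 to 39.4%) and 12 of 41 (29.3%, 16.1 to 45.5%). They were 24 of 41 (58.5%, 42.1 to 73.7%) and 26 of 37 (70.3%, 53 to 84.1%) in KO CD4, and 24 of 38 (63.2%, 46 to 78.2%) and 28 of 41 (68.3%, 51.9 to 81.9%) in WT CD4. The intervals overlapped in all 4 groups.

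The Il7r difference did not shrink in any group when cells were matched on genes detected, while those of Ubash3a and Cd6 did on average. It was -1.08, -0.58, -1.02 and -0.98 with all cells, -1.12, -0.69, -1.82 and -1.56 in pairs, and -0.88, -1.19, -1.59 and -2.40 in cleared pairs (KO CD8, WT CD8, KO CD4, WT CD4). The mean over groups was -0.91 ± 0.23 with all cells and -1.30 ± 0.50 in pairs (SD, n = 4 groups). The RefSeq promoter of Il7r (chr15:9529827-9530126, GRCm38.p6, minus strand, 250 bases before to 50 after the start) is shown because it was the only one of 16 named genes alike in all groups with a promoter entry to hold TTCNNNGAA, the motif that STAT factors of cytokine receptors bind. Capitals mark that motif, whose fixed letters read the same on both strands:
Il7r promoter: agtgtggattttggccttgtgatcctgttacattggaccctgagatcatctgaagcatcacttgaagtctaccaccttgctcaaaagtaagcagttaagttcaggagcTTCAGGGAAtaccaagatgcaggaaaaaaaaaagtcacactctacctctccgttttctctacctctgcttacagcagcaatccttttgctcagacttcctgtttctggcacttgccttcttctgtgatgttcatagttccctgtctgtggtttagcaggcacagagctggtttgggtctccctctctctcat
Of all 27025 promoters of 300 bases, 8.47% held the motif, and 7.20% of the 3374 of genes compared in all groups, against 6.25% of the 16. A match of these letters is a description and not evidence of binding.

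The remaining lower genes were mostly read at low levels. Pts, an enzyme of tetrahydrobiopterin synthesis, had matched differences of -1.09, -1.45, -1.08 and -1.12, and was read in 10 of 39 positive and 12 of 35 zero cells of KO CD8 and 8 of 38 and 14 of 41 of WT CD4. Smg1, a kinase of nonsense-mediated decay, averaged -0.77 ± 0.36 in pairs, Phf14, a PHD finger protein, -0.61 ± 0.15, and Dusp22, a phosphatase that dampens Lck, -0.60 ± 0.26 (SD, n = 4 groups). Xcr1, a chemokine receptor of cross-presenting dendritic cells, had matched differences of -0.56, -1.53, -0.76 and -0.37. Its medians were at most 1.01 on the log2(FPKM + 1) scale. The dendritic cell list, which holds Xcr1, had summed levels with medians of 0.72 in positive and 1.44 in zero cells of KO CD8, 0.48 and 1.14 in WT CD8, 0.00 and 1.24 in KO CD4, and 0.00 and 0.80 in WT CD4. Of its 8 markers, 4 and 0, 6 and 2, 6 and 2, and 6 and 4 were at 0 in all positive and all zero cells of these groups. Xcr1 was named for its direction, so the list that holds it is no independent reading of that direction. The part of such RNA in the result was not tested. Cyp2j5, a cytochrome P450, was read in 3 of 39 positive and 18 of 35 zero cells of KO CD8, and its highest cells there were at 1.39 and 2.10 on the log2(FPKM + 1) scale. Fam160b2 averaged -1.07 ± 0.26 in pairs, and Btbd9, Acnat1, Tmem245 and Trmt10a lay between -0.48 and -0.34. Btbd9 changed its sign in cleared pairs of KO CD4 (0.07).

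Of 5497 nameable genes compared in both CD8 groups, 24.5% were higher in both and 3.62% lower, and the 6 of each kind with the largest smaller matched difference are named. Those higher included Ubash3a, Cd6 and the interferon-induced genes Rtp4, Ifi27l2a and Mndal. Ifi27l2a was read in 21 of 39 positive and 9 of 35 zero cells of KO CD8 and in 20 of 26 and 15 of 41 of WT CD8, with matched differences of 2.88 and 3.15. In the CD4 groups its matched differences were -1.51 in KO and 0.97 in WT. Mndal, of the interferon-induced p200 family, had 2.23 and 1.96 in the CD8 groups and -0.79 and 0.87 in the CD4 groups. In cleared pairs Ifi27l2a averaged 0.82 ± 2.05 and Mndal 0.65 ± 1.22 (SD, n = 4 groups). The interferon-stimulated list as a whole had a median of -0.22 in WT CD8 pairs, with 14 of 33 members above 0. Smpd1, the acid sphingomyelinase, was higher in all 4 groups in pairs (2.03, 2.33, 1.02 and 1.45). Gpr18, a G protein-coupled receptor of lymphocytes, was lower in CD8 pairs (-1.96 and -2.77) and higher in CD4 pairs (1.09 and 1.58). Its counts were small: 11 of 39 positive and 15 of 35 zero cells, 5 of 26 and 12 of 41, 8 of 41 and 3 of 37, and 7 of 38 and 2 of 41. Besides Gpr18 and Pts, the genes named as lower in both CD8 groups were Pitpnm1, Lonp2, Pnrc1 and Dus3l, with matched differences between -2.29 and -1.12 there.

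Of 4340 nameable genes compared in both CD4 groups, 21.5% were higher in both and 6.04% lower. The 6 named as higher by the same rule were Mat2b (2.17 in KO and 2.00 in WT pairs), Cct7 (1.96 and 2.15), Ywhab (1.96 and 2.11), Smarce1 (2.03 and 1.94), Tagap (1.91 and 1.99) and Naa60 (1.87 and 1.95). Cct7 encodes a chaperonin subunit, Smarce1 a subunit of BAF chromatin remodellers, and Tagap a GTPase-activating protein induced on T cell activation. Cct7 was -0.09 and Mat2b 1.35 in KO CD8 pairs, and they were -1.96 and -1.71 in WT CD8 pairs. Besides Il7r, the genes named as lower in both CD4 groups were Prkx (-1.67 and -1.64), Rab18 (-2.43 and -1.50), Cyth4 (-1.43 and -1.65), Slc16a10 (-1.73 and -1.35) and Adk (-1.41 and -1.34). The difference between cell types was not tested for any of these genes, and the rule that named them used the same values.

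Genes of the receptor's pathway, as a list, lay above the median over all genes in pairs of every group. With all cells they did so in each group but KO CD8, and their sign was mixed in cleared pairs. The IL-27 receptor pathway list without Il27ra had 15 or 16 of 17 members read in at least 10% of cells on either side. Its median difference was -0.25 in KO CD8 (7 of 15 above 0), 1.14 in WT CD8 (13 of 15), 0.49 in KO CD4 (12 of 16) and 0.46 in WT CD4 (13 of 16), beside medians over all genes under the same 10% rule of 0.07, 0.65, close to 0 and 0.31. In pairs the list medians were 0.14, 0.26, 0.21 and 0.18, with 8 or 9 members above 0 in each group. The matched medians over all genes were 0.005, 0.07, -0.03 and 0.08. In cleared pairs the list medians were -0.13, 0.57, 0.16 and -0.31, so that KO CD8 and WT CD4 changed sign. Il6st, the gp130 chain that pairs with Il27ra, was read in 7 of 39 positive and 11 of 35 zero cells of KO CD8, 7 of 26 and 9 of 41 of WT CD8, 11 of 41 and 8 of 37 of KO CD4, and 6 of 38 and 13 of 41 of WT CD4. Il6st was thus at 0 in most Il27ra-positive cells, and its direction was mixed.

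Jak1, the kinase bound to gp130, was the member with the largest positive difference. Its medians in positive and zero cells were 7.97 and 6.92 in KO CD8, 7.74 and 6.33 in WT CD8, 7.55 and 6.99 in KO CD4, and 7.91 and 5.57 in WT CD4. Jak1 matched differences were 1.44, 0.87, 0.46 and 1.95, and 0.94, 0.71, 0.77 and 1.21 in cleared pairs. Stat3 gave 0.65, 0.81, -0.05 and -0.95 in pairs. Socs3, an inhibitor induced by STAT3, was -1.89 in KO CD8 pairs and 1.54, 0.93 and 1.39 in the others. Ptpn6, the phosphatase SHP-1, was the member with the most negative mean, with -0.72, -2.25, -0.80 and -0.25 in pairs.

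**Figure D4:**
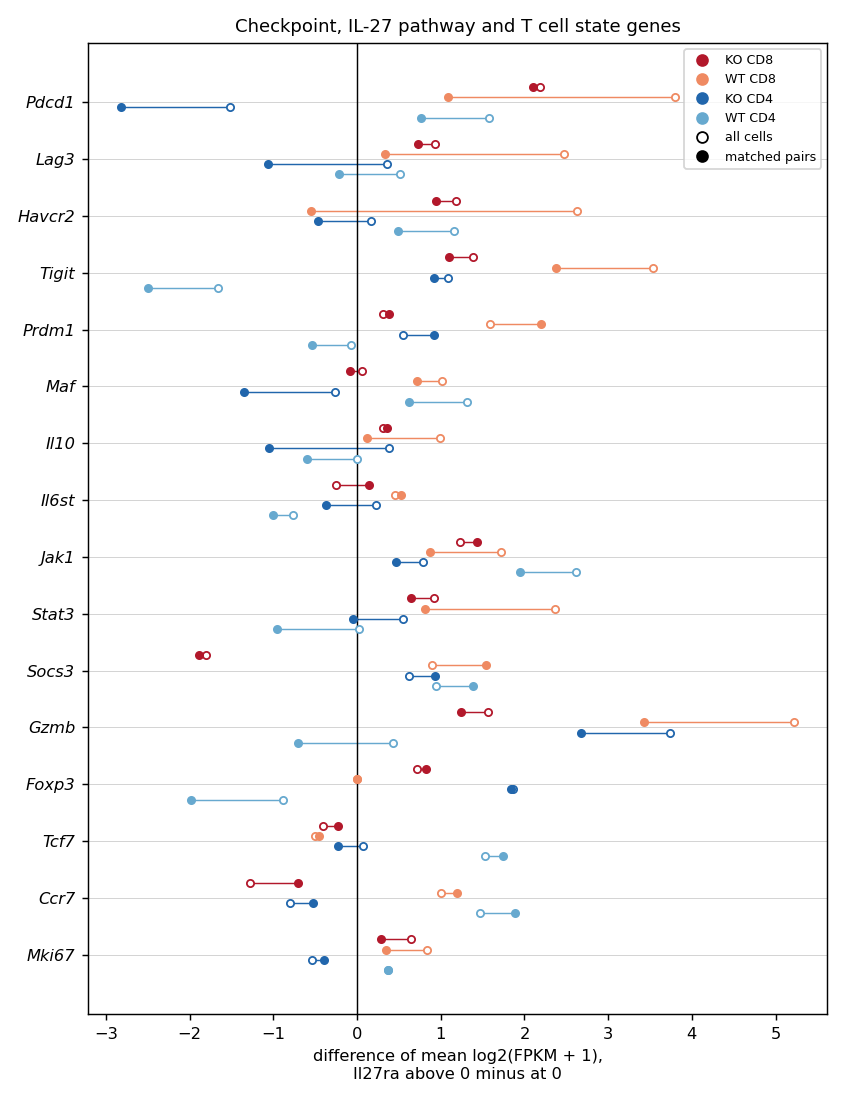
Differences of mean log2(FPKM + 1), Il27ra-positive minus Il27ra-zero cells, for checkpoint receptors, IL-27 pathway genes and T cell state genes. Open circles are all cells and filled circles matched pairs; Pdcd1 and Tigit spread widest between groups in pairs, and in WT CD8 most filled circles lie left of the open ones.

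Checkpoint genes had mean differences above 0 before matching, larger than the spread between groups for Lag3 and Havcr2 but not for Pdcd1 and Tigit. After matching all 4 were smaller than that spread. Averaged over groups, Pdcd1 (PD-1) differed by 1.51 ± 2.23, Lag3 by 1.07 ± 0.97, Havcr2 (TIM-3) by 1.29 ± 1.02 and Tigit by 1.08 ± 2.13 (SD, n = 4 groups). In pairs these were 0.29 ± 2.15, -0.05 ± 0.78, 0.10 ± 0.73 and 0.47 ± 2.09. The IL-27 induced coinhibitory list of 20 genes, drawn from what the field reports and so no independent evidence of a direction, had medians of 0.18, 1.47, 0.35 and 0.53 with all cells, 0.35, 0.23, -0.21 and 0.02 in pairs, and -0.33, 0.11, -0.55 and -0.12 in cleared pairs. Of these genes 9 of 14, 9 of 16, 6 of 14 and 7 of 14 members were above 0 in pairs. The inducers Prdm1 and Maf averaged 0.74 ± 1.14 and -0.03 ± 0.95 in pairs.

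Pdcd1 went in different directions in the CD4 groups. It was read in 8 of 41 positive cells (19.5%, 8.82 to 34.9%) and 13 of 37 zero cells (35.1%, 20.2 to 52.5%) of KO CD4, against 17 of 38 (44.7%, 28.6 to 61.7%) and 11 of 41 (26.8%, 14.2 to 42.9%) of WT CD4. In CD8 it was read in 14 of 39 and 7 of 35 cells of KO and 21 of 26 and 20 of 41 of WT. Its matched differences were 2.11, 1.09, -2.81 and 0.77. Tigit had the opposite pattern in CD4: 32 of 41 positive and 21 of 37 zero cells of KO CD4, against 20 of 38 and 31 of 41 of WT CD4. Tigit matched differences were 1.10, 2.38, 0.92 and -2.50.

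Foxp3 and the regulatory T cell list were both above 0 in KO CD4 pairs and both below 0 in WT CD4 pairs. Foxp3, the defining factor of these cells, was read in 24 of 41 positive cells (58.5%, 42.1 to 73.7%) and 15 of 37 zero cells (40.5%, 24.8 to 57.9%) of KO CD4. In WT CD4 it was read in 12 of 38 (31.6%, 17.5 to 48.7%) and 18 of 41 (43.9%, 28.5 to 60.3%). The intervals overlapped in each group, and the matched differences were 1.84 and -1.99. In CD8 it was read in 3 of 39 positive and 0 of 35 zero cells of KO and in none of 26 and 41 cells of WT. The regulatory T cell list of 19 genes had matched medians of 1.16 (10 of 13 above 0) in KO CD8, 1.23 (11 of 14) in WT CD8, 0.57 (12 of 18) in KO CD4 and -0.57 (7 of 18) in WT CD4. In cleared pairs these were 0.05 (8 of 13), 0.96 (12 of 14), 0.46 (11 of 18) and -0.91 (4 of 18), with the widest move in KO CD8. Among its members, Icos, a costimulatory receptor, had 1.81 and 3.02 in CD8 pairs, and Tnfrsf4 (OX40) 1.40 and 2.63. In CD4 pairs Icos was 1.47 in KO and -1.01 in WT, and Tnfrsf4 1.89 and -0.67.

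Genes of the T cell receptor complex and its first signalling steps had the highest mean of the 18 lists with all cells and in matched pairs, but not in cleared pairs (0.17, against 0.28 for immediate early genes) or without cells lacking B2m or Cd3 genes (0.73, against 0.81 for oxidative phosphorylation genes). Medians of its 20 members were 1.25, 1.95, 0.78 and 1.37 with all cells, with 19, 20, 18 and 19 of 20 above 0. Matched medians were 1.17, 0.22, 0.47 and 0.80, with 19, 11, 18 and 16 of 20 above 0, and the mean over groups was 0.67 ± 0.41 (SD, n = 4 groups). The cleared pairs gave 0.29, -0.28, 0.17 and 0.52. The list holds the Cd3 genes by which some cells were left out of the cleared pairs. Cd247, the zeta chain, had matched differences of 1.34, 1.17, 0.16 and 2.82, while Lck, the first kinase of the pathway, had 1.36, 0.82, 0.49 and 1.13. Costimulation and activation receptors, the list of Cd6 and Icos, had matched medians of 1.25, 0.46, 0.48 and -0.09 (13 of 14, 8 of 13, 9 of 14 and 7 of 14 above 0). In cleared pairs they were 0.49, 0.50, 0.20 and -0.56, with 12, 8, 8 and 4 members above 0.

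In matched pairs, interferon-stimulated genes had a median above 0 in both KO groups and below 0 in both WT groups. With all cells the list medians were 1.01, 0.93, 0.46 and 0.36. In pairs they were 1.01 in KO CD8 (31 of 34 above 0, 17 of them by 1 or more), -0.22 in WT CD8 (14 of 33), 0.49 in KO CD4 (27 of 36) and -0.05 in WT CD4 (16 of 36). In cleared pairs they were 1.19 (32 of 34), -0.45 (13 of 33), 0.21 (22 of 36) and -0.64 (11 of 36). Beside these, the matched median over all genes under that 10% rule was within 0.08 of 0 in each group. In KO CD8 pairs the interferon-induced GTPase genes Igtp, Gbp6 and Gbp4 had differences of 2.81, 2.30 and 1.92, Ly6a (Sca-1) 2.49, Ifit3 1.89 and Irf7 1.53. Igtp was -2.13, Gbp6 -1.08 and Gbp4 -1.18 in WT CD8 pairs. These genes were chosen after their values were seen and do not stand for the list. Of its 33 members in WT CD8 pairs, 5 were lower by 1 or more and 3 higher by 1 or more. The difference between genotypes was not tested, as each is 1 sample.

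**Figure D5:**
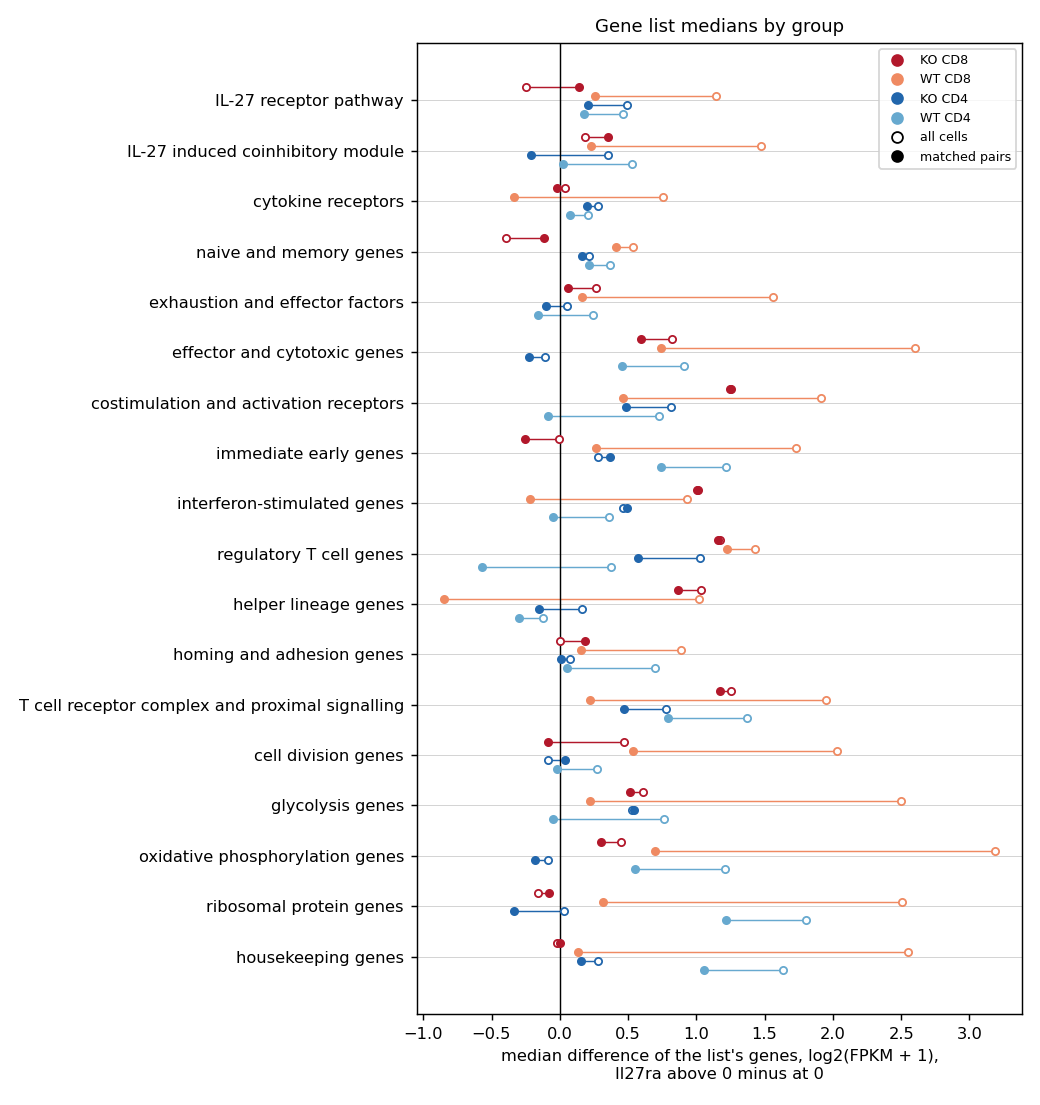
Median difference over the members of each gene list, Il27ra-positive minus Il27ra-zero cells, log2(FPKM + 1). Open circles are all cells, filled circles matched pairs, colours are groups; with all cells the WT CD8 median is the highest in most lists, though not for interferon-stimulated (1.01 in KO CD8 and 0.93 in WT CD8) or helper lineage genes, and in pairs it is lower in every list.

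The effector and cytotoxic list had matched medians of 0.60, 0.74, -0.22 and 0.45 (12 of 19, 13 of 19, 4 of 15 and 10 of 12 above 0). In cleared pairs they were -0.19, 0.64, -0.10 and 0.62, so that KO CD8 changed its sign and the list was above 0 in the WT groups only. Gzmb, the protease granzyme B, was read in 16 of 39 positive and 9 of 35 zero cells of KO CD8, 21 of 26 and 17 of 41 of WT CD8, 24 of 41 and 9 of 37 of KO CD4, and 12 of 38 and 10 of 41 of WT CD4. The widest gaps in share were in WT CD8 (80.8%, 60.6 to 93.4%, and 41.5%, 26.3 to 57.9%) and KO CD4 (58.5%, 42.1 to 73.7%, and 24.3%, 11.8 to 41.2%). Gzmb matched differences were 1.25, 3.43, 2.67 and -0.70. Nkg7, a protein of cytotoxic granules, had 1.87, 1.22, -0.25 and 1.92.

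Naive and memory genes as a list, which holds Il7r, lay below 0 as Il7r did in KO CD8 only. With all cells their medians were -0.40 (5 of 17 above 0), 0.53, 0.22 and 0.37, and in cleared pairs -0.29 (5 of 17), 0.63, 0.35 and 0.33. Their matched medians were -0.12, 0.41, 0.16 and 0.21, with 7 of 17, 10 of 15, 9 of 15 and 10 of 15 above 0. Cd27, a costimulatory receptor kept by naive and memory cells, had matched differences of 2.79, 0.81, 1.42 and -0.29. S1pr1, which steers recirculation through lymph nodes, averaged 0.93 ± 0.72 in pairs, and Ccr7, a lymph node homing receptor, 0.46 ± 1.28 (SD, n = 4 groups). Tcf7, the factor TCF-1 of memory and stem-like cells, was read in 19 of 38 positive and 13 of 41 zero cells of WT CD4 and in 5 of 26 and 11 of 41 of WT CD8. Its matched differences were -0.22, -0.46, -0.23 and 1.75.

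The lists of other cytokine receptors and of exhaustion factors had mean matched medians of -0.02 ± 0.23 and -0.01 ± 0.15 (SD, n = 4 groups). Among the cytokine receptors, Il21r had matched differences of 0.23, 0.18, 1.90 and 1.75. Batf, an AP-1 factor of effector and exhausted cells, had 1.16, 2.71, -0.62 and -0.16, and Nfatc2, which acts below the T cell receptor, -2.33, -0.06, -0.14 and -0.47. Helper lineage genes averaged -0.11 ± 0.71, with Rora, a factor of several lineages, at -0.81 ± 0.99. Homing and adhesion genes averaged 0.10 ± 0.08 and immediate early genes 0.28 ± 0.41. The immediate early list had matched medians of -0.25 (7 of 20 above 0), 0.26 (11 of 18), 0.37 (13 of 20) and 0.74 (16 of 18). In cleared pairs these were -0.58 (3 of 20), 0.80 (14 of 18), 0.78 (18 of 20) and 0.11 (9 of 18). Its members Dusp2 (0.11, 1.52, 1.06 and 1.70) and Nfkbia (0.32, 1.64, 1.12 and 0.78) were above 0 in every group in pairs, unlike the list in KO CD8.

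Cell division genes were higher for each of 35 members in WT CD8 with all cells (median 2.03) and for 25 of 35 in pairs (0.54). The other groups gave -0.09, 0.04 and -0.02 in pairs (KO CD8, KO CD4, WT CD4). Mki67, the proliferation marker, was read in 8 of 39 positive and 4 of 35 zero cells, 13 of 26 and 13 of 41, 3 of 41 and 5 of 37, and 5 of 38 and 5 of 41. Oxidative phosphorylation genes had medians of 0.44, 3.19, -0.09 and 1.21 with all cells and 0.30, 0.70, -0.18 and 0.55 in pairs. Glycolysis genes had 0.51, 0.22, 0.54 and -0.05 in pairs. Ribosomal protein genes gave -0.08, 0.32, -0.34 and 1.22 in pairs, with 31 of 32 above 0 in WT CD4. Housekeeping genes gave 0.00, 0.13, 0.15 and 1.05. In WT CD4 the matched pairs therefore still differed in genes that nearly every cell uses, and in cleared pairs the same lists were at 0.79 and 0.26.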

How the data were processed

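Single-cell RNA of tumour T cells was measured by Smart-seq2. The authors deposited FPKM values that, per the labels, are TMM-normalised. Bowtie, RSEM and the mm10 build stand in the submitters' processing notes without versions. Which gene annotation they used is not stated there. The table held 23420 genes in 378 columns, of which 0 were unmapped; the 4 population libraries were not used. FPKM hides depth, so reads were estimated from steps of 1 read in 4799 genes with 1 GENCODE M21 transcript. This estimate takes no account of the TMM scaling and is only approximate.

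Groups came from the titles (genotype and cell type). Differences used log2(FPKM + 1). Genes above 0 in at least 20% of cells on either side were compared (10% for the 18 lists); with 1 sample a group, a difference of 1 counts as called. No test was run, and no doublet caller, since cells were sorted into wells. The members and lists were chosen with earlier results of these data known. Of 470 list symbols, 3 were matched under another symbol and 5 were not matched. Named genes were, besides the 12 either way alike in all groups, the 6 either way by the smaller matched difference of both CD8 or both CD4 groups, the 2 largest of each list and 21 fixed for their role, some of which are not reported here; T cell receptor, immunoglobulin, mitochondrial, predicted, RIKEN and small RNA genes were left out. Other genes of a list (Igtp, Gbp6, Gbp4, Ifit3, Irf7, Lck) were chosen after their values were seen. Alternatives were other matching, pseudocounts, thresholds and cell filters, and leaving out each group. The steps were tested on simulated data. Gene coordinates are from a RefSeq gene table and promoters from RefSeq GRCm38.p6. Python 3.11.15, numpy 2.4.6, pandas 2.3.3 and scipy 1.17.1 were used.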

Additional observations from a re-analysis of the deposited data

Results flagged for a closer look

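Differences of the 18 lists and 88 named genes were screened over the 4 groups. Chance marks about 1 in 20 sets of 4 values as holding a value far from the others. Several such marks are thus to be expected by chance among this many lists and genes. With the opposite signs given further below, 19 values were flagged. With all cells, WT CD8 was marked in the exhaustion and effector factor list (median 1.56), the glycolysis list (2.50), Cox6c (4.39) and Cd2bp2 (3.02). It is also the group whose positive and zero cells differed most in genes detected, and the matched values were 0.16, 0.22, 3.04 and 2.21. KO CD8 was marked in Rtp4 (2.22), Slc16a10 (0.49) and Socs3 (-1.81), with matched values of 2.46, 0.41 and -1.89.

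Other values had opposite signs in pairs of groups, and none of these differences was tested. Between KO and WT, the mean matched list median differed by 0.88 for interferon-stimulated genes and by -0.98 for ribosomal protein genes. With all cells, Tuba1b, a tubulin gene, differed by -1.66 and Ccr7 by -2.28, KO minus WT. Between CD8 and CD4, the mean matched median differed by -0.32 for cytokine receptors and by 0.24 for exhaustion and effector factors. With all cells, the CD8 minus CD4 values were -2.46 for Gpr18, -2.02 for Lonp2, -0.62 for Pnrc1, -1.26 for Dus3l, 2.08 for Cyth4 and -1.25 for Tcf7. Gpr18, Lonp2, Pnrc1, Dus3l and Cyth4 were named for their direction in 1 cell type, so that direction is fixed by the choice.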

How the results depend on the processing

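The share of compared genes alike in all 4 groups depended most on the processing. With all cells it was 5.3% higher and 0.0225% lower. It was 1.26% and 0.247% in matched pairs, 1.62% and 0.247% matched within 5%, 1.24% and 0.18% in a linear model with log2 genes detected, 8.67% and 0.18% with a pseudocount of 0.1, and 1.86% and 0% with 10. It was 10.2% and 0% from 500 genes per cell, 2.22% and 0.102% from 2000, 2.33% and 0.00912% with no filter on low values, 3.12% and 0.0442% without cells lacking B2m or Cd3 genes, and 0.651% and 0.517% in cleared pairs. Pairs matched on estimated reads, added after the data were seen like the cleared pairs, gave 3.08% higher, and a positive threshold of 10 FPKM gave 0.0443% lower. Leaving out each group gave 5.52% to 15.2% higher (15.2% without KO CD4, 13.1% without KO CD8) and 0.0598% to 0.255% lower.

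Genes past 1 were 15.2%, 49.1%, 14.5% and 27.7% (KO CD8, WT CD8, KO CD4, WT CD4). They were 31.1%, 66.9%, 30.1% and 45.8% in the same order with a pseudocount of 0.1. In all 4 groups they were 3.12%, 22.3%, 2.95% and 9.58% with 10, and 7.76%, 24.3%, 6.55% and 10.8% with no filter, which compares more genes. WT CD8 had 23.6% in pairs, 31.1% within 5%, 17.4% in the model and 30.8% in cleared pairs. KO CD4 had 21.8% within 5%, and WT CD4 17.9% in the model and 18.1% without cells lacking B2m or Cd3 genes.

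List medians below are means over the groups. T cell receptor genes (1.34) gave 0.67 in pairs, 0.79 within 5%, 0.74 in the model, 0.78 with a pseudocount of 10, 0.73 without cells lacking B2m or Cd3 genes and 0.17 in cleared pairs. Interferon-stimulated genes (0.69) gave 0.31 in pairs, 0.25 within 5%, 0.27 in the model and 0.076 in cleared pairs. Costimulation receptors (1.18) gave 0.52 in pairs, 0.55 in the model and 0.16 in cleared pairs. Regulatory T cell genes (1.00) gave 0.40 within 5%, 0.50 in the model and 0.14 in cleared pairs, and glycolysis genes (1.10) gave 0.15 in the model. Signs reversed for cytokine receptors (-0.022 in pairs, -0.074 within 5%, -0.033 in cleared pairs), exhaustion factors (-0.0080 in pairs, -0.045 in the model, -0.16 in cleared pairs), helper genes (-0.11 in pairs, -0.042 within 5%, -0.37 in cleared pairs), the IL-27 receptor pathway (-0.037 within 5%), the coinhibitory list (-0.22 in cleared pairs) and naive and memory genes (-0.024 without cells lacking B2m or Cd3 genes). Among genes, the mean difference reversed for Lag3 (-0.053 in pairs, -0.13 within 5%, -0.28 in cleared pairs), and within 5% and in cleared pairs for Pdcd1 (-0.099 and -0.21), Havcr2 (-0.20 and -0.31) and Tigit (-0.015 and -0.29). The cause was not tested. Each difference was taken within a group, and the groups could not be paired by animal because the labels name none.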
